A study of Vitis vinifera with 16 samples.

Results

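The genes described here make, cleave and move sucrose and related sugars in the developing grape ovule. They were found by searching the gene descriptions of the deposited table for sucrose synthase, sucrose-phosphate enzymes, invertase (also named fructofuranosidase), SWEET, sucrose, hexose and other sugar transporters or carriers, raffinose and galactinol synthases, and alpha-galactosidase. The search found 79 of 13411 genes. By their descriptions they are 6 sucrose synthases, 5 sucrose-phosphate synthases, 3 acid invertases, 2 neutral or alkaline invertases, 4 invertase inhibitors, 11 SWEET genes, 1 sucrose transporter, 11 hexose transporters, 22 other sugar transporters, 5 galactinol synthases and 7 alpha-galactosidases. The other 2 matched by a word in an alternative name and are not sugar metabolism genes by their main description: LOC100265011 is a calreticulin-3 and LOC100246895 a probable glucosidase.

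RNA was sequenced from ovules of 2 varieties of Vitis vinifera, Muscat Hamburg (MH) and Zhongpu No. 18 (ZP), collected on day 35, 45, 55 or 61 after flowering. Each of the 8 groups of a variety and a day held 2 libraries, 16 in all, and the ovules had been frozen with their skin kept. No other treatment or genotype is given in the labels, which also do not state which variety is seedless. The study's title names lignin formation in seeded and in stenospermocarpic ovules, in the latter of which fertilised seeds stop developing early.

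Sucrose is the form in which most plants move carbon from leaves to seeds. The embryo has no phloem link to the maternal tissue, so sugar must leave that tissue through exporters such as SWEETs and enter the next cells through proton-coupled sucrose or hexose carriers. Inside the sink, sucrose is cleaved either by invertase, which gives glucose and fructose, or by sucrose synthase, which gives fructose and UDP-glucose, a precursor of starch and cell wall polymers. Galactinol synthase starts the raffinose family of sugars, which maturing seeds store, and alpha-galactosidase breaks these down.

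Values are FPKM, fragments scaled to gene length and to the size of the library, so levels can be set beside each other between genes. The 2 values given for a group are its 2 libraries. A difference is on the log2(FPKM + 1) scale with its standard error, ZP minus MH on 1 day or averaged over the 4 days, or day 61 minus day 35 within a variety. Adjusted p-values come from limma over the 12637 genes that reached 1 FPKM in at least 2 libraries, with 0.05 as the limit for a call. Of the 79 genes, 72 passed that filter. The 7 that did not were LOC100266759 (a sucrose synthase), LOC100244135 (a sucrose-phosphate synthase), the hexose transporters HT16 and HT19, LOC100253784 (an ERD6-like transporter), LOC100267960 (an alpha-galactosidase) and LOC100246895.

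An FPKM is a share of the library, and the varieties differed in what filled it. The 32 seed storage genes, a list of storage proteins and oleosins, summed to 62303 to 243451 FPKM in MH libraries and to 183 to 3967 in ZP libraries. Not all went that way: 10 of the 32 were called higher in ZP on average and 21 lower. Of 25 seed maturation genes, 6 were higher and 17 lower. For all tested genes the shares were 61.6% and 27.0%. The median difference over all tested genes was 0.24 at day 35, 0.68 at day 45, 0.64 at day 55 and 0.56 at day 61, and after median-ratio scaling it was 0.03 to 0.09. A change is therefore best read against these medians, and many calls turned or ended under another scaling, examples of which are given with their genes. In bulk tissue, fewer cells of a type and less RNA per cell cannot be told apart. Markers of other tissues differed as well. Their counts stand beside 61.6% of all tested genes higher in ZP on average and 27.0% lower (6011 and 5387 of 12637 after median-ratio scaling). The 15 phloem genes summed to 10.3 to 16.2 FPKM in MH and 35.6 to 49.3 in ZP. Of the 12 tested, 9 were higher in ZP on average and 0 lower (9 and 3 after median-ratio scaling). All 39 photosynthesis genes, at 65.0 to 1245 FPKM in MH and 1128 to 6033 in ZP, were higher in ZP on average (38 after median-ratio scaling). Of 52 tested pericarp and skin genes, 41 were higher and 8 lower in ZP on average (36 and 14 after median-ratio scaling). The sums of the 55 genes in this list did not follow the counts on each day. At day 45 they were 3382 and 3292 FPKM in MH against 2896 and 2924 in ZP, and at day 55 3724 and 3595 against 1650 and 2242. ZP sums were higher at day 35 (5671 and 5631 against 4904 and 4868) and day 61 (3451 and 3606 against 2959 and 3248). The 9 seed coat genes, which include anthocyanidin reductase, were present in both varieties, with 592 to 1033 FPKM in MH and 614 to 965 in ZP. The part of these tissues in the sugar gene results was not tested.

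At day 35, 35 of the 72 genes were called higher in ZP and 18 lower, beside 45.8% and 31.1% of all tested genes. At day 45 the counts were 45 higher and 13 lower (all genes 59.8% and 19.1%), at day 55 they were 42 and 13 (56.9% and 21.3%), and at day 61 they were 40 and 16 (55.5% and 19.2%). Averaged over days, 46 were higher and 16 lower, against 61.6% and 27.0% of all genes. The median difference of the 72 genes was 0.33, 0.82, 0.79 and 0.51 on the 4 days. These shares and medians lie near those of the whole table. In the differences between varieties the pathway therefore did not stand apart as a block. The results lie in which of its genes were high in which variety. After median-ratio scaling the splits were 32 higher and 21 lower, 36 and 29, 33 and 25, and 29 and 27 on the 4 days, and 37 and 29 on average. With quantile normalization the pairs of counts were 31 and 20, 33 and 26, 33 and 24, 27 and 27, and 35 and 29.

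**Figure D1:**
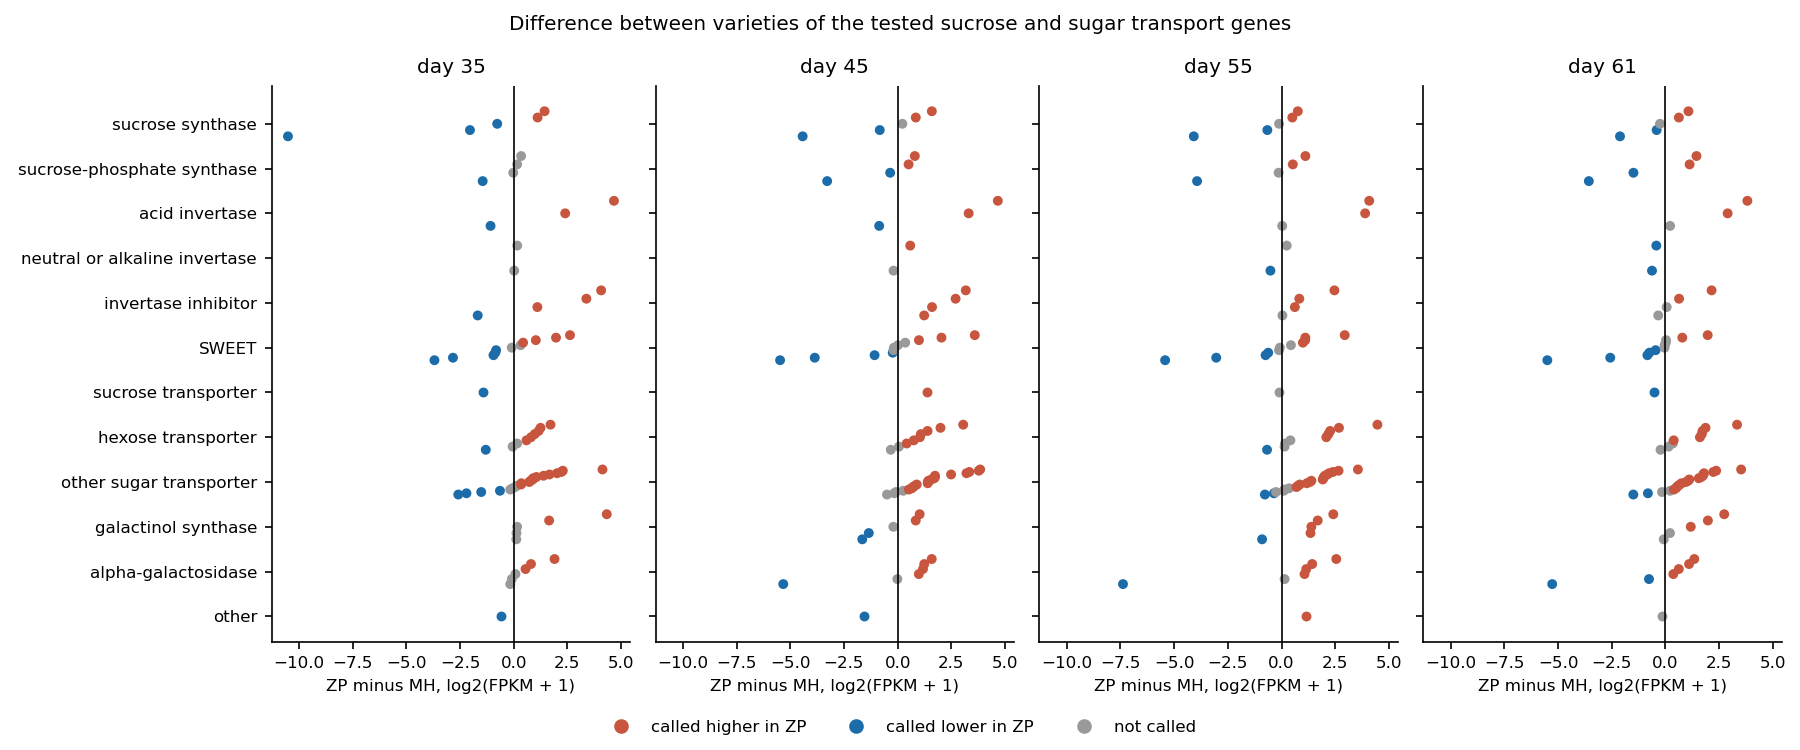
Difference between varieties (ZP minus MH, log2(FPKM + 1), horizontal axis) of the 72 tested genes on each day, in rows by class; each dot is a gene, red where called higher in ZP, blue where called lower and grey where not called. The acid invertase row has 2 red dots on each day, and the lowest dots belong to a sucrose synthase (-10.51 at day 35), a sucrose-phosphate synthase, 2 SWEET genes and an alpha-galactosidase.

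Sucrose synthase was the most abundant class in MH at day 35 and rested on different genes in the 2 varieties. LOC100243135, described as sucrose synthase 2 (chromosome 5, 409037 to 416847, minus strand), was at 2577 and 2931 FPKM in MH at day 35, 749 and 1055 at day 45, 650 and 944 at day 55, and 334 and 419 at day 61. In ZP it was at 0.697 and 1.09, then 42.9 and 38.2, 49.7 and 41.0, and 64.7 and 113. The MH libraries lay above the ZP libraries on every day, but the gap narrowed from both sides. The difference was -10.51 ± 0.26 at day 35, -4.42 at day 45, -4.09 at day 55 and -2.12 ± 0.26 at day 61 (adjusted p = 5.62e-06). From day 35 to day 61 the gene fell by 2.87 ± 0.26 in MH (adjusted p = 4.33e-07) and rose by 5.52 ± 0.26 in ZP (adjusted p = 7.84e-10). It made up 88.6% and 90.3% of all sucrose synthase FPKM in MH at day 35, and 0.131% and 0.206% in ZP.

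LOC100249279, a sucrose synthase on chromosome 11 (489882 to 494898), was the leading gene of the class in ZP at day 35. It was at 171 and 152 FPKM in MH at day 35, 84.7 and 106 at day 45, 125 and 149 at day 55, and 92.1 and 111 at day 61. The ZP values were 438 and 435, 270 and 305, 248 and 215, and 227 and 201, above MH on all days. The difference was 1.43 ± 0.15 at day 35 and 1.59 ± 0.15 at day 45 (adjusted p = 4.52e-07), and 0.76 and 1.07 on the later days, where the call was lost after median-ratio scaling (-0.12 and 0.22).

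LOC100267606, also described as sucrose synthase 2 but on chromosome 7, took over in ZP. Its ZP values were 91.9 and 92.0 FPKM at day 35, 229 and 220 at day 45, 286 and 232 at day 55, and 330 and 316 at day 61. In MH it was at 156 and 159, 108 and 144, 158 and 210, and 189 and 232. It rose in both varieties, by 1.80 ± 0.17 in ZP (adjusted p = 7.03e-07) and by 0.41 ± 0.17 in MH (adjusted p = 0.0493; not called when rescaled without seed storage genes). It was lower in ZP at day 35 (-0.77 ± 0.17, adjusted p = 0.00106) and higher on the later days by 0.50 to 0.84, but these later calls ended with each of the 3 other scalings, and at day 55 the gene was called lower after median-ratio scaling (-0.38).

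The class sum moved less in ZP than in MH. All sucrose synthases together came to 2907 and 3246 FPKM in MH at day 35, 943 and 1305 at day 45, 934 and 1304 at day 55, and 616 and 764 at day 61. The ZP sums were 534 and 531, 542 and 563, 584 and 488, and 621 and 629. At day 61 the sums of the 2 varieties overlapped on the FPKM scale. The remaining members were low: LOC104878905, at 2.39 and 3.98 FPKM in MH at day 35, was listed at 0 in 5 of 8 ZP libraries and at 0.103 or less in the others. LOC100252799, described as sucrose synthase 7, was at 1.98 and 1.74 FPKM in ZP at day 35 and at 0.449 and 0.213 in MH (1.11 ± 0.10), with at most 0.472 FPKM in any library of another day.

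Sucrose-phosphate synthase makes the precursor of sucrose and so opposes cleavage. LOC100262385, described as sucrose-phosphate synthase 3 (chromosome 5, 18692640 to 18699054), was at 8.34 and 9.73 FPKM in MH at day 35, 11.8 and 16.5 at day 45, 17.3 and 19.0 at day 55, and 13.3 and 16.7 at day 61. In ZP it fell from 2.88 and 2.48 to 0.494 and 0.582, 0.287 and 0.211, and 0.427 and 0.260. No ZP library reached an MH library, and the time courses ran in opposite directions. The difference was -1.45 ± 0.16 at day 35, -3.28 at day 45, -3.93 ± 0.16 at day 55 (adjusted p = 1.07e-10) and -3.57 at day 61, and the gene rose by 0.67 ± 0.16 in MH and fell by 1.45 ± 0.16 in ZP.

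The most abundant gene of the class, LOC100241955, carried the class in ZP. It was at 26.9 to 40.9 FPKM over the MH libraries, and in ZP it rose from 36.0 and 37.0 at day 35 to 85.1 and 78.6 at day 61 (1.14 ± 0.17). The variety difference was called at day 45 (0.51), day 55 (0.52) and day 61 (1.12 ± 0.17), but after median-ratio scaling it was called lower at day 45 (-0.41) and day 55 (-0.33) and not called at day 61. Its neighbour LOC104880684 lies 1148 bases away, is a long non-coding RNA in RefSeq with no listed domain, and was at 1.21 to 4.71 FPKM in MH and 4.32 to 5.70 in ZP, with calls from day 45 on (0.80, 1.11 and 1.44 ± 0.22).

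LOC100232974, a sucrose-phosphate synthase 1 that overlaps another gene, rose in both varieties. In MH it was at 1.67 and 1.76 FPKM at day 35, 2.84 and 3.08 at day 45, 6.38 and 6.66 at day 55, and 16.5 and 21.3 at day 61. The ZP values were 1.61 and 1.72, 2.04 and 2.17, 5.85 and 5.81, and 6.03 and 6.00. ZP was called lower at day 45 (-0.35 ± 0.13) and day 61 (-1.49 ± 0.13, adjusted p = 1.35e-07), and after median-ratio scaling also at day 55 (-0.90). The rise was 2.86 ± 0.13 in MH and 1.40 ± 0.13 in ZP.

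Acid invertases act in the vacuole or the cell wall, and 2 of the 3 genes were higher in ZP on each day, also under each of the 3 other scalings. Beside this, 33.8% of all tested genes were called higher in ZP on all 4 days. LOC100256970, a soluble beta-fructofuranosidase (chromosome 16, 16900904 to 16905554), was at 2.23 and 2.54 FPKM in MH at day 35, 1.99 and 1.84 at day 45, 2.08 and 2.21 at day 55, and 0.660 and 0.773 at day 61. In ZP it was at 84.8 and 84.7, 74.7 and 70.8, 52.2 and 52.2, and 23.2 and 22.9. Every ZP library was above 20 FPKM and every MH library under 3. The difference was 4.66 ± 0.10 at day 35, 4.66 at day 45, 4.08 at day 55 and 3.81 ± 0.10 at day 61 (adjusted p = 3.78e-12), and the gene fell over time in both varieties, by 0.98 in MH and 1.83 in ZP.

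LOC100241232, a second acid beta-fructofuranosidase (chromosome 2, 4876791 to 4881218), went from 6.20 and 5.59 FPKM in MH at day 35 to 1.97 and 2.13, 1.79 and 1.67, and 1.05 and 1.23. In ZP it stayed at 35.0 and 35.4, 29.2 and 29.1, and 41.1 and 37.8 up to day 55 and was at 15.9 and 14.0 at day 61. The groups did not overlap on any day. Unlike that of the other soluble gene, its difference was largest at day 55, at 3.89 ± 0.11 (adjusted p = 4.22e-12), against 2.39 at day 35, 3.30 at day 45 and 2.89 at day 61.

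CWINV, described as an insoluble (cell wall) invertase, behaved differently from the soluble genes. It was at 20.9 and 22.0 FPKM in MH at day 35, 9.76 and 13.5 at day 45, 3.54 and 4.95 at day 55, and 1.25 and 2.12 at day 61. The ZP values were 9.14 and 10.1, 6.08 and 5.69, 4.40 and 4.19, and 2.05 and 2.10. It was lower in ZP at day 35 (-1.08 ± 0.18, adjusted p = 0.000114) and day 45 (-0.86 ± 0.18). On the FPKM scale values overlapped at day 55 and day 61 (0.03 and 0.21, not called). Median-ratio scaling divides day 55 values by 0.68 and 0.76 in MH and by 1.33 and 1.32 in ZP. With that scaling the MH libraries lay above the ZP libraries at day 55 and day 61 too. CWINV fell over time in both varieties, by 3.08 ± 0.18 in MH and 1.78 ± 0.18 in ZP. At day 35 CWINV therefore gave most of the acid invertase FPKM in MH (sums 29.3 and 30.1), and LOC100256970 gave 65.8% and 65.1% of it in ZP (sums 129 and 130). By day 61 the class sums had come down to 2.97 and 4.12 FPKM in MH and to 41.2 and 39.0 in ZP.

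The 2 neutral or alkaline invertases, enzymes of the cytosol and organelles, varied little. LOC100253759 lay between 10.8 and 24.0 FPKM in the 16 libraries and was lower in ZP at day 55 (-0.52 ± 0.15) and day 61 (-0.63 ± 0.15, adjusted p = 0.00187). LOC100254513 lay between 6.49 and 12.4 FPKM. It was called higher in ZP at day 45 (0.58), where median-ratio scaling turned it (-0.27), and lower at day 61 (-0.43).

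Invertase inhibitors are small proteins that bind invertases and block them, and they were high in ZP together with the soluble acid invertases. LOC100250600 (chromosome 2, 7796969 to 7797999) was at 346 and 357 FPKM in ZP at day 35, 229 and 226 at day 45, 82.6 and 94.2 at day 55, and 45.2 and 49.7 at day 61. In MH it was at 19.9 and 20.1, 27.3 and 21.9, 15.1 and 15.4, and 9.01 and 11.0. No MH library reached any ZP library. The difference shrank from 4.07 ± 0.13 at day 35 (adjusted p = 1.82e-11) to 3.17, 2.46 and 2.14 ± 0.13.

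LOC104882452, the next inhibitor gene 3783 bases downstream, was higher in ZP at day 35 and day 45 only among the days called. Its ZP values were 30.2 and 33.6 FPKM at day 35, 3.27 and 4.38 at day 45, 1.03 and 1.11 at day 55, and 0.302 and 0.298 at day 61. In MH it was at 1.88 and 2.45, 0.538 and 0.627, 1.27 and 0.792, and 0.215 and 0.288. The difference went from 3.38 ± 0.15 to 1.60, 0.04 and 0.06, and in ZP the gene fell by 4.66 ± 0.15. LOC104882694 was instead at 12.7 and 13.1 FPKM in MH at day 35 against 3.24 and 3.46 in ZP (-1.68 ± 0.21, adjusted p = 7.61e-06). From day 45 on it was at 0.0804 FPKM or listed at 0 in MH and at 0.172 to 1.94 in ZP. LOC100251390 was at 7.47 and 8.57 FPKM in ZP at day 45 against 0.529 and 0.264 in MH (2.70 ± 0.17), its widest gap. The 4 inhibitors together came to 386 and 400 FPKM in ZP at day 35 against 36.8 and 37.9 in MH.

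**Figure D2:**
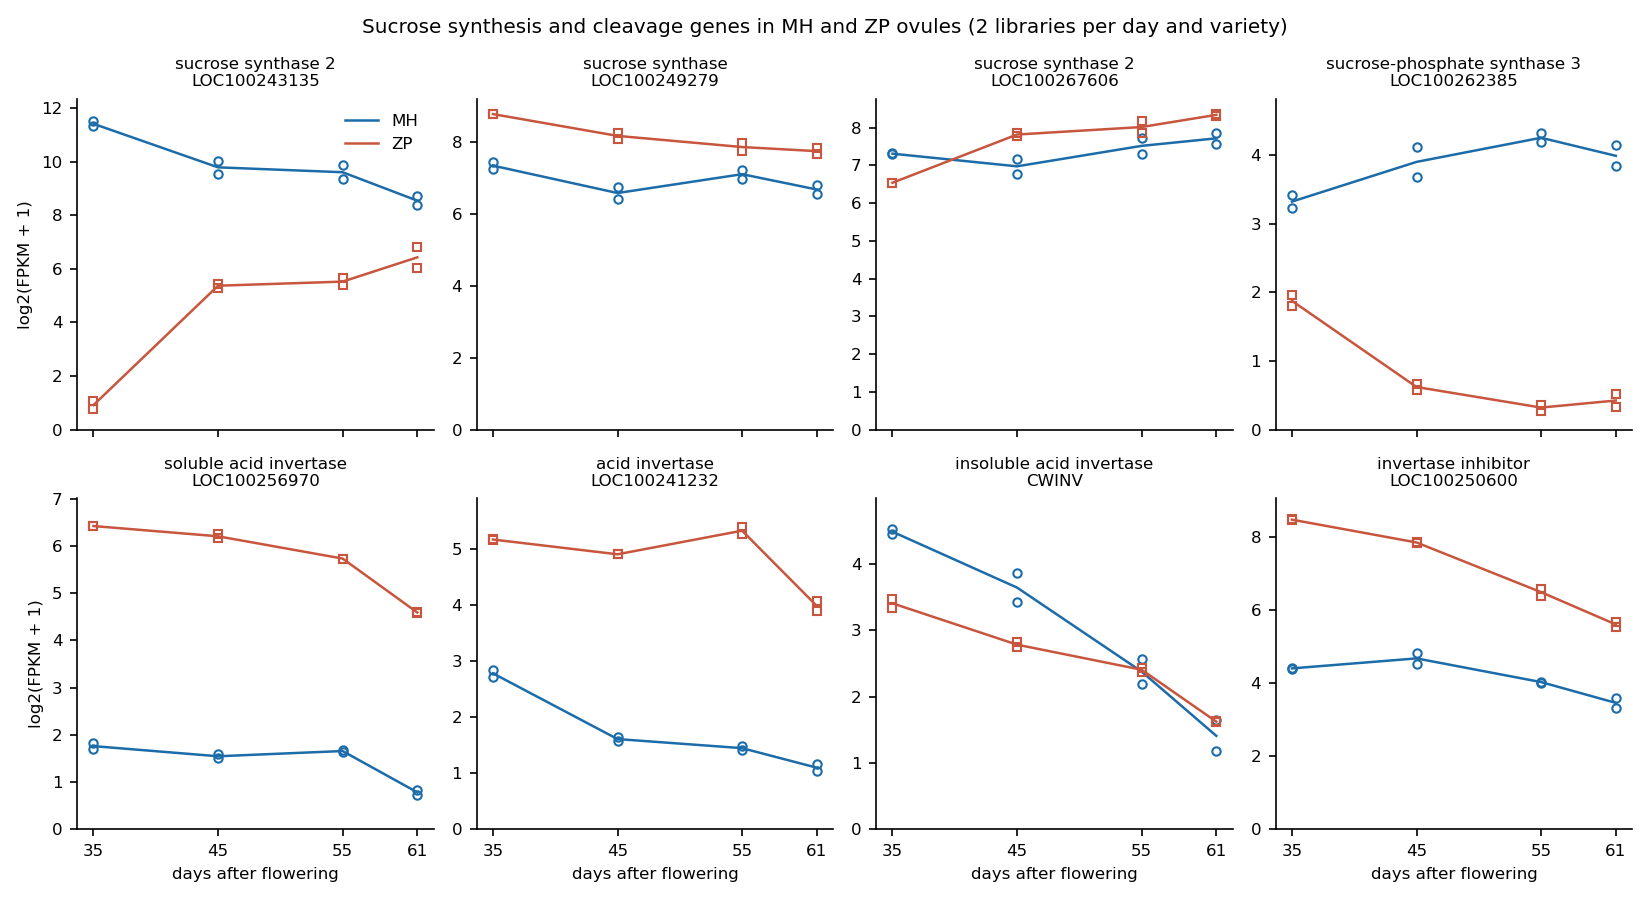
Levels (log2(FPKM + 1), vertical axis) by day after flowering of 8 genes that make or cleave sucrose or inhibit invertase; circles are MH and squares ZP libraries, and lines join the mean of the 2 libraries of a group. LOC100243135 and LOC100262385 are lower in ZP on all 4 days, LOC100256970, LOC100241232 and LOC100250600 are higher, and CWINV meets at day 55 on this scale, but not after median-ratio scaling.

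SWEET genes encode uniporters that let sugar out of cells along its gradient or across the vacuole membrane. Of 11 genes, 3 were lower in ZP on every day, under each scaling as well, beside 9.40% of all tested genes lower on all 4 days. LOC100243643, SWEET15, had the highest mean of the sugar transporter genes in both varieties; in Arabidopsis, SWEET15 exports sucrose from the seed coat and endosperm. It was at 494 and 539 FPKM in MH at day 35, 973 and 1116 at day 45, 535 and 688 at day 55, and 357 and 499 at day 61. The ZP values were 290 and 292, 488 and 500, 372 and 352, and 316 and 298. Both varieties were highest at day 45, and ZP was below MH on each day, with differences of -0.82, -1.07, -0.75 and -0.46 ± 0.17 (adjusted p = 0.0228 at day 61). It made up 66.9% to 82.6% of SWEET FPKM in MH libraries and 77.8% to 86.2% in ZP libraries.

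SWEET14 (LOC100266643, chromosome 7, 2750911 to 2752742) came on between day 35 and day 45 in MH. It was at 13.0 and 12.6 FPKM at day 35, 125 and 121 at day 45, 81.9 and 95.9 at day 55, and 75.3 and 95.5 at day 61. In ZP it was at 0.823 and 1.07, 1.93 and 1.67, 1.10 and 1.08, and 0.576 and 1.28. All MH libraries were far above all ZP libraries, where the gene stayed under 2 FPKM. The difference was -2.83 ± 0.17 at day 35 and -5.47, -5.42 and -5.50 ± 0.17 later (adjusted p = 1.05e-11 at day 61). It rose by 2.63 ± 0.17 in MH, and in ZP the day 61 minus day 35 difference was -0.04 ± 0.17.

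SWEET10 (LOC100267921, chromosome 17) was high in MH from day 35 on, at 41.9 and 47.0 FPKM, and then at 66.7 and 77.7, 71.9 and 70.2, and 26.6 and 34.3. The ZP values were 3.42 and 1.79, 4.19 and 3.87, 8.04 and 7.46, and 3.91 and 4.63. The groups did not overlap. The difference was -3.69 ± 0.19, -3.86, -3.04 and -2.57 ± 0.19 on the 4 days. The gene fell by 0.54 in MH from day 35 to day 61, a call that was lost under each of the 3 other scalings, and rose by 0.58 ± 0.19 in ZP.

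SWEET16 and SWEET17, which in Arabidopsis sit in the vacuole membrane, ran the other way. SWEET16 (LOC100257903) was at 7.53 and 7.80 FPKM in ZP at day 35, 17.4 and 16.1 at day 45, 12.1 and 12.0 at day 55, and 14.6 and 13.1 at day 61. In MH it was at 0.193 and 0.671, 0.501 and 0.444, 0.620 and 0.777, and 2.55 and 3.07. ZP was above MH on every day, by 2.62, 3.59, 2.94 and 1.96 ± 0.15 (adjusted p = 5.92e-08 at day 61).

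SWEET17 (LOC100255033) was at 7.81 and 7.88 FPKM in ZP at day 35 against 1.48 and 1.06 in MH (1.97 ± 0.13). It fell to 2.51 and 2.32 in ZP and rose to 2.66 and 2.36 in MH, so that the varieties overlapped at day 61. It fell by 1.37 ± 0.13 in ZP and rose by 0.63 ± 0.13 in MH.

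The other SWEET genes crossed or stayed close. SWEET1 (LOC100247121) was at 44.2 and 39.4 FPKM in MH and 22.9 and 22.2 in ZP at day 35 (-0.86 ± 0.12), and at 13.7 and 12.4 in MH and 27.9 and 26.0 in ZP at day 45 (0.99 ± 0.12). At day 61 the varieties overlapped, at 29.6 and 31.1 and at 29.9 and 31.5. The later excess in ZP was not called after median-ratio scaling (0.09 at day 45 and 0.26 at day 55). SWEET4 (LOC100241122) was higher in ZP at day 35 (1.03 ± 0.16) and lower at day 55 and day 61 (-0.62 and -0.75), with at most 2.68 FPKM in any library. SWEET2 (LOC100255517, which overlaps another gene) reached 23.5 and 29.1 FPKM in MH at day 61 against 13.3 and 15.0 in ZP (-0.84 ± 0.22). SWEET2a (LOC100262300) rose in both varieties, from 5.71 and 8.30 FPKM to 14.3 and 14.6 in MH and from 9.60 and 9.74 to 14.4 and 15.1 in ZP. SWEET3 and SWEET6b stayed at or under 2.40 FPKM. With all SWEET genes added up, MH held 609 and 657 FPKM at day 35 and 1200 and 1352 at day 45, against 352 and 352 and 568 and 581 in ZP.

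Only 1 of the 13411 genes in the deposited table was described as a sucrose transporter, and genes outside that table cannot be judged. This gene, VVSUC27, encodes a proton-coupled importer of sucrose. The MH libraries were at 63.9 and 42.1 FPKM at day 35, 33.9 and 24.7 at day 45, 54.8 and 34.4 at day 55, and 40.9 and 36.1 at day 61. ZP values were 18.9 and 18.5, 69.6 and 82.7, 36.2 and 45.2, and 25.9 and 26.3. ZP was below MH at day 35 (-1.42 ± 0.23, adjusted p = 8.29e-05), above it at day 45 (1.36 ± 0.23, adjusted p = 0.000112), overlapping at day 55 and again below at day 61 (-0.54, adjusted p = 0.0485). After median-ratio scaling the day 45 excess was 0.43 and not called.

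Hexose transporters import glucose and fructose with protons, and 7 of the 9 tested were higher in ZP on average and 0 lower, beside 61.6% and 27.0% of all genes. After median-ratio scaling the counts were 6 and 3, beside 6011 and 5387 of the 12637 genes. LOC100233083 (chromosome 10, 4997281 to 4999883) was at 48.0 and 44.9 FPKM in MH at day 35, 25.1 and 26.1 at day 45, 6.28 and 5.64 at day 55, and 3.56 and 4.11 at day 61. In ZP it was at 94.3 and 90.3, 205 and 235, 152 and 152, and 50.1 and 45.1. The ZP libraries lay above the MH libraries on every day and rose to day 45 while MH fell. The difference grew from 0.98 ± 0.11 to 3.05, 4.46 ± 0.11 at day 55 (adjusted p = 1.6e-12) and 3.33.

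HT7 fell in both varieties, from 22.1 and 18.6 FPKM to 4.59 and 5.18 in MH and from 69.2 and 67.9 to 17.1 and 16.6 in ZP. ZP was higher on each day, by 1.71, 1.99, 2.18 and 1.60 ± 0.11. MH was already at 11.0 and 11.4 FPKM at day 45, while ZP was still at 48.3 and 46.3 at day 55, and the interaction of variety and day was called (adjusted p = 0.0159). HT5 and HT4 were close to 0 in MH, at no more than 0.519 and 0.0853 FPKM, and reached 8.13 and 6.22 (HT5) and 4.09 and 4.29 FPKM (HT4) in ZP at day 55.

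HT6 was the most even of the abundant hexose transporters, at 38.3 to 62.0 FPKM in MH and 63.5 to 89.2 in ZP. It was called higher in ZP at day 35 (1.16 ± 0.11), day 45 and day 61, but called lower at day 45 (-0.51), day 55 (-0.70) and day 61 (-0.46) after median-ratio scaling. LOC100232961 was higher in ZP at day 35, at 27.4 and 29.0 FPKM against 14.2 and 8.96 (1.25 ± 0.18), and lower at day 55, at 13.2 and 13.8 against 25.3 and 19.5 (-0.68 ± 0.18). LOC100262713, which overlaps another gene, reached 15.9 and 14.0 FPKM in ZP at day 55 against 2.35 and 3.24 in MH (2.08 ± 0.16). A gene model on chromosome 6 with no RefSeq match was lower in ZP at day 35 (-1.30 ± 0.23), and HT14 was at most 1.94 FPKM. All hexose transporters summed to 131 and 120 FPKM in MH and 286 and 281 in ZP at day 35, and to 98.1 and 108 in MH and 347 and 371 in ZP at day 45.

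**Figure D3:**
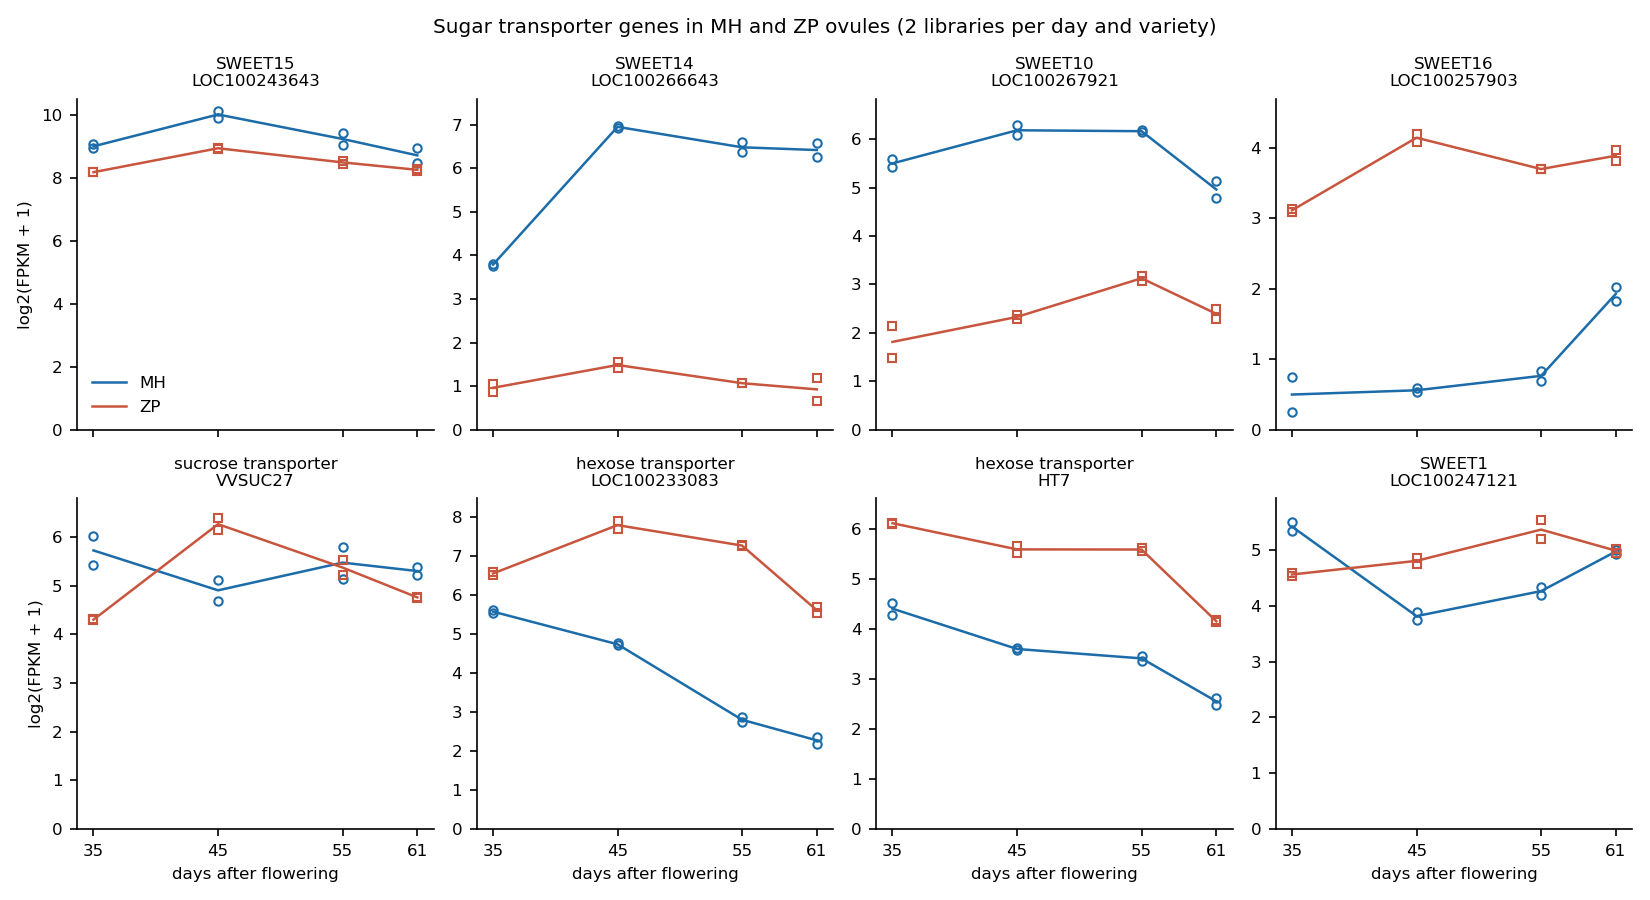
Levels (log2(FPKM + 1), vertical axis) by day after flowering of 8 sugar transporter genes; circles are MH and squares ZP libraries, and lines join the mean of the 2 libraries of a group. SWEET15, SWEET14 and SWEET10 are lower in ZP on all 4 days, SWEET16, LOC100233083 and HT7 are higher, and VVSUC27 and SWEET1 cross.

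ERD6-like transporters, many of which carry sugar out of the vacuole in Arabidopsis, were the largest family, with 17 genes. On average 14 of the 16 tested were higher in ZP and 2 lower (61.6% and 27.0% of all genes), or 12 and 3 after median-ratio scaling (6011 and 5387 of the 12637 genes). Of the 17, 11 lie close together on chromosome 14 between positions 4070087 and 4223588, with gaps of 102 to 36392 bases, and other RefSeq genes lie in 3 of the gaps. Copies so close may share reads, and how shared reads were assigned is not known here.

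LOC100264207, at the end of the group, had the highest mean over all libraries, although LOC132255020 held 52.1% and 52.6% of ERD6-like FPKM in MH at day 35 and LOC100264207 9.49% and 10.3%. It was at 362 and 369 FPKM in ZP at day 35, 160 and 171 at day 45, 60.5 and 50.5 at day 55, and 19.0 and 20.7 at day 61. MH held 17.4 and 22.8, 13.2 and 18.2, 9.36 and 14.9, and 9.13 and 10.5. ZP was higher on each day, but the gap closed from 4.13 ± 0.20 to 3.33, 2.13 and 0.95, and at day 61 the call was lost after median-ratio scaling (0.16). In ZP the gene fell by 4.14 ± 0.20.

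LOC132255020 lies 1283 bases from it and differed between the varieties in the other direction at day 35. MH values were 95.7 and 117 FPKM at day 35 and then at 1.74 and 2.72, 0.946 and 1.69, and 1.16 and 0.778. For ZP the values were 16.4 and 17.3, 45.9 and 43.6, 10.5 and 8.73, and 6.23 and 13.0. ZP was below MH at day 35 (-2.58 ± 0.26, adjusted p = 1.06e-06) and above it later, by 3.84 ± 0.26 at day 45, 2.21 at day 55 and 2.36 at day 61. In MH the gene fell by 5.77 ± 0.26, the widest time change of the 72 genes in that variety.

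In the same group, LOC104881446 fell in MH from 2.03 and 2.53 to 0.320 and 0.409 FPKM and rose in ZP from 4.46 and 4.85 to 14.1 and 15.2, with a difference of 3.20, 3.55 and 3.52 ± 0.13 from day 45 on. LOC100267582 was at 1.03 to 2.99 FPKM in MH and 8.06 to 15.5 in ZP, a nearly constant gap of 2.02 to 2.49. LOC100854088 and LOC100245278 were highest in ZP at day 35, at 4.48 and 5.19 and at 2.17 and 2.06 FPKM, and under 0.25 FPKM in every MH library. LOC132255093 was not called up to day 55 on the FPKM scale and was lower in ZP at day 61, at 2.12 and 2.64 against 8.39 and 8.64 FPKM (-1.50 ± 0.16). After median-ratio scaling its ZP libraries lay below its MH libraries on each day. LOC104881447, LOC100247058 and LOC132252501 reached 18.7, 24.5 and 2.15 FPKM in ZP and at most 9.14, 8.04 and 0.496 in MH. The genes of the group thus differed in their course as well as in their level. Summed over the family, ERD6-like FPKM was 184 and 222 in MH and 494 and 504 in ZP at day 35, and 49.7 and 53.2 against 138 and 158 at day 61.

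**Figure D4:**
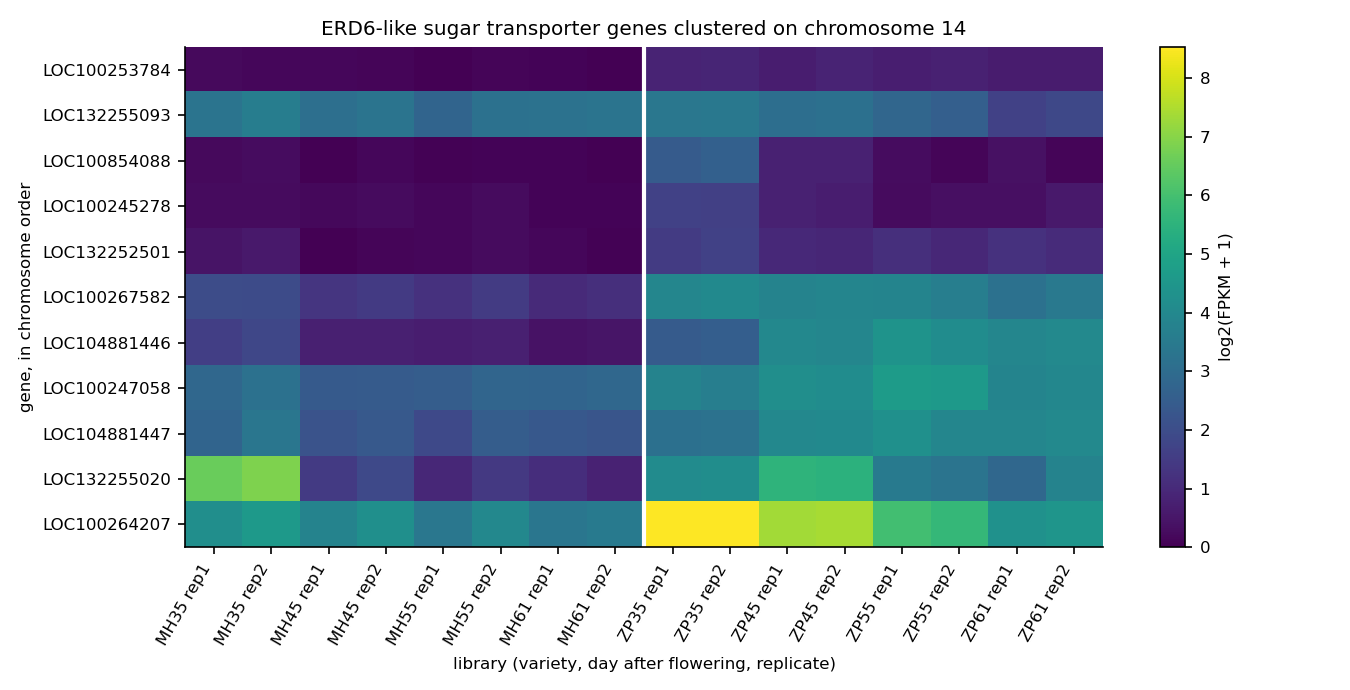
Levels (log2(FPKM + 1), colour) of the 11 nearby ERD6-like genes of chromosome 14 in chromosome order (rows) in the 16 libraries (columns, MH left and ZP right of the white line). LOC100264207 is brightest in ZP at day 35 and LOC132255020 in MH at day 35.

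Of the ERD6-like genes elsewhere, LOC100261307 was at 24.9 and 23.1 FPKM in ZP at day 45 against 0.671 and 0.991 in MH (3.78 ± 0.17). LOC100266019 was at 9.10 to 16.7 FPKM in MH and rose in ZP from 31.9 and 31.0 to 44.9 and 49.1. LOC100263259, which overlaps another gene, was lower in ZP at day 35 (-0.64 ± 0.11) and called higher later, where median-ratio scaling turned the day 45 call (-0.22). A short gene model on chromosome 10 with no RefSeq match was lower in ZP at day 35, at 0.115 and 0.333 against 4.53 and 4.69 FPKM (-2.20 ± 0.22). The plastid hexose transporter LOC100232958 was at 33.8 to 50.4 FPKM in MH and fell in ZP from 51.5 and 53.8 to 31.0 and 30.5. It was called higher in ZP at day 35 (0.36 ± 0.12), a call lost under each of the 3 other scalings, and lower at day 55 (-0.36 ± 0.12). A gene model on chromosome 7 is described as monosaccharide-sensing protein 2, but its listed domain is Neprosin and not a sugar transporter domain, so its place among the carriers is uncertain. It was higher in ZP on each day, by 1.32 to 1.79 ± 0.15. The UDP-sugar transporter LOC100250711, which overlaps another gene, was at 5.39 and 5.67 FPKM in MH at day 35 and at most 0.735 in MH later, against 1.16 to 2.02 in ZP throughout. LOC100250381, another UDP-sugar transporter, was higher in ZP from day 45 on, by 1.40, 2.02 and 1.55. LOC100256151 was higher on each day, by 0.34, 1.40, 1.39 and 0.49, but after median-ratio scaling it was not called at day 35 (0.05) and was called lower at day 61 (-0.29). LOC100240820 and LOC100244045, also ERD6-like, were at most 3.09 FPKM.

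Galactinol synthases summed to 10.2 to 29.2 FPKM in MH libraries and 14.5 to 68.1 in ZP libraries, and a pair of neighbours on chromosome 7 crossed between the varieties. LOC100255485 (4794785 to 4796490) was at 41.5 and 52.8 FPKM in ZP at day 35, 4.29 and 5.07 at day 45, 12.2 and 16.0 at day 55, and 3.25 and 2.07 at day 61. The gene stood in MH at 1.58 and 1.19, 14.7 and 12.1, 2.06 and 1.60, and 0.650 and 0.549. ZP was above MH at day 35, day 55 and day 61 and below it at day 45, without overlap. The differences were 4.33 ± 0.19, -1.34 ± 0.19, 2.41 and 1.18, and the interaction of variety and day had an adjusted p of 1.09e-08.

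LOC100250305, 4428 bases away, was also higher in ZP at day 35 and day 55 and lower at day 45, at a lower level. It was at 4.78 and 4.94 FPKM in ZP and 1.09 and 0.677 in MH at day 35, and at 0.877 and 1.24 in ZP and 6.23 and 4.71 in MH at day 45. Its differences were 1.65 ± 0.16, -1.65, 1.39 and 0.21, the last not called. Another pair of neighbours, LOC100249324 and LOC100244167 on chromosome 14, 9695 bases apart, climbed in ZP alone: from 0.436 and 0.505 to 7.40 and 7.71 FPKM (2.54 ± 0.11) and from 1.04 and 0.871 to 4.83 and 4.67 FPKM (1.56 ± 0.16). In MH they stayed at or under 0.844 FPKM, with day 61 minus day 35 differences of -0.07 and -0.26. The test of variety by day was called for all 5 galactinol synthases, beside 78.9% of all genes. LOC100260266 was at 7.21 to 10.3 FPKM in MH. On the FPKM scale a difference was called only at day 55, at 3.96 and 4.10 in ZP (-0.91 ± 0.14). After median-ratio scaling its ZP libraries lay below its MH libraries at day 45 and day 61 as well.

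Alpha-galactosidases remove galactose from raffinose sugars and from galactomannan. LOC100261154 (chromosome 10, 27252364 to 27259706) was alike in both varieties at day 35, at 11.8 and 14.4 FPKM in MH and 13.8 and 14.0 in ZP. In MH it then reached 287 and 337 at day 45, 468 and 614 at day 55, and 222 and 248 at day 61. In ZP it was at 6.05 and 7.58, 1.87 and 2.62, and 5.14 and 5.07. The varieties overlapped at day 35 and were far apart afterwards. The difference was 0.08 ± 0.16 at day 35, -5.33 at day 45, -7.38 ± 0.16 at day 55 (adjusted p = 8.67e-13) and -5.27 at day 61, and the gene rose by 4.07 ± 0.16 in MH and fell by 1.28 ± 0.16 in ZP. Its downstream neighbour LOC100267960, 1567 bases away, was listed at 0 in MH at day 35 and was at 0.477 to 1.54 FPKM in MH later, too low to be tested. The upstream neighbour LOC100245638, 21475 bases away, went the other way, with 10.8 and 10.1 FPKM in ZP at day 55 against 1.16 and 0.780 in MH (2.55 ± 0.14).

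AGA had the highest mean of the genes described as alpha-galactosidase, but the domain listed for it is that of raffinose synthase and seed imbibition proteins, while the other 6 genes have an alpha-galactosidase domain. For MH the values were 156 and 140 FPKM at day 35, 214 and 238 at day 45, 285 and 261 at day 55, and 239 and 271 at day 61. ZP libraries were at 135 and 129, 217 and 229, 302 and 299, and 156 and 142. On the FPKM scale a difference was called at day 61 (-0.77 ± 0.12, adjusted p = 4.27e-05) and on no other day. After median-ratio scaling AGA was called lower in ZP on each day, by differences of -0.49, -0.96, -0.73 and -1.62. LOC100248541, alpha-galactosidase 3, was higher in ZP on each day by 0.55, 1.58, 1.07 and 1.10 ± 0.13, at 55.7 to 106 FPKM in MH and 84.2 to 236 in ZP, with the day 55 call lost after median-ratio scaling (0.20). LOC100245809 was at 8.80 to 25.6 FPKM in MH and 19.9 to 44.4 in ZP. LOC100263458 was at most 0.168 FPKM in MH and at 3.14 and 3.30 in ZP at day 35.

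**Figure D5:**
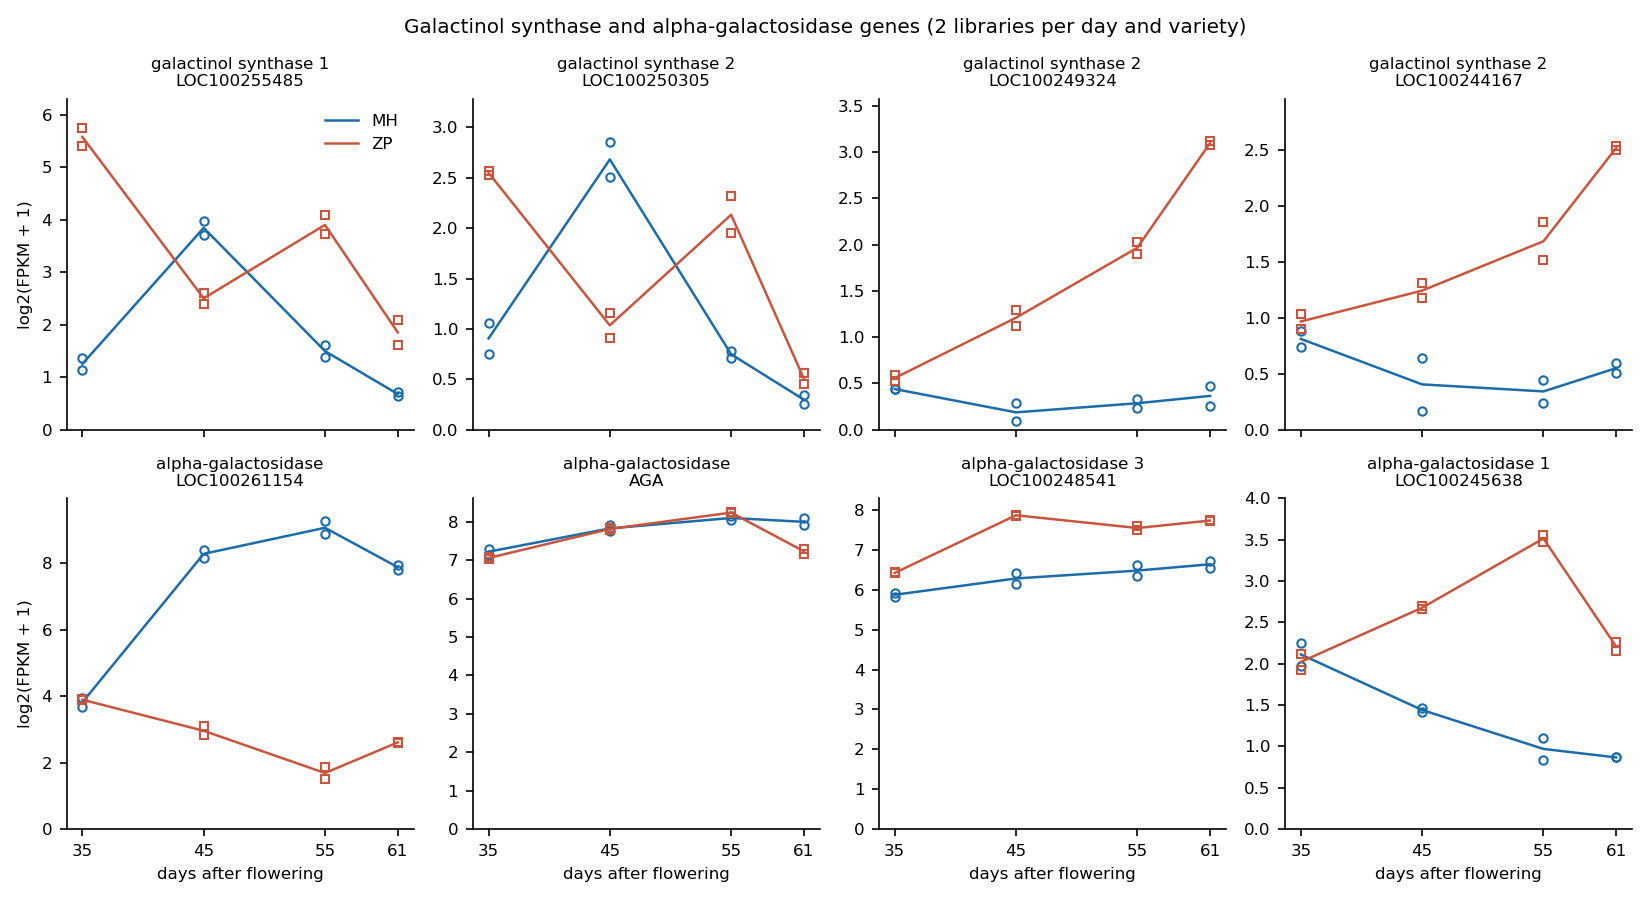
Levels (log2(FPKM + 1), vertical axis) by day after flowering of 4 galactinol synthase genes (upper row) and 4 genes described as alpha-galactosidase (lower row); circles are MH and squares ZP libraries, and lines join the mean of the 2 libraries of a group. LOC100255485 and LOC100250305 are higher in ZP at day 35 and lower at day 45, LOC100261154 separates after day 35, and AGA is called lower in ZP at day 61 (on each day after median-ratio scaling).

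The calreticulin-3 gene LOC100265011, a chaperone found through its alternative name, was lower in ZP at day 35 and day 45 (-0.58 and -1.58 ± 0.17) and higher at day 55 (1.12), the last not called after median-ratio scaling (0.25).

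Over time, 14 of the 72 genes were higher at day 61 than at day 35 in MH and 36 lower, beside 15.8% and 52.1% of all tested genes. In ZP 21 were higher and 34 lower, beside 31.9% and 35.0%. The MH split depended on the scaling: it was 26 and 27 after median-ratio scaling and 26 and 23 after quantile normalization. With all 4 days in the test, 61 genes changed in MH (72.0% of all genes), 66 changed in ZP (73.6%), and 65 had a course that differed between the varieties (78.9%). The day of the highest mean was day 35 for 41 of the 72 genes in MH (56.9%; all genes 60.3%) and for 29 in ZP (40.3%; all genes 36.9%).

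On all 4 days, 22 genes were higher in ZP (33.8% of all tested genes), and 14 of them were so under each of the 3 other scalings too. These 14 were the soluble invertases LOC100256970 and LOC100241232, the inhibitor LOC100250600, SWEET16, the hexose transporters LOC100233083, HT4 and HT7, the ERD6-like genes LOC100240820, LOC100247058, LOC100266019, LOC100267582, LOC104881446 and LOC132252501, and the gene model with the Neprosin domain. The other 8 lost the call on at least 1 day under at least 1 scaling. They were LOC100249279, LOC100264207, LOC100248541 and LOC100256151, described above, HT5 (day 45, 0.13 with quantile normalization), LOC100261307 (day 61, 0.33 after median-ratio scaling), LOC100245809 (day 45, 0.28, day 55, 0.32, and day 61, -0.18, after median-ratio scaling) and LOC100263458 (day 61, 0.11 with quantile normalization). Lower in ZP on all 4 days were 5 genes (9.40% of all tested genes), each also under the other scalings: sucrose synthase LOC100243135, sucrose-phosphate synthase LOC100262385, SWEET15, SWEET14 and SWEET10. Both counts were below the share of all genes.

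Among neighbouring steps of the pathway, fructokinase phosphorylates the fructose that cleavage releases. Of 5 fructokinase genes, 3 were higher and 1 lower in ZP on average, beside 61.6% and 27.0% of all genes, but 0 and 3 after median-ratio scaling. The lower gene, LOC100262010, was at 498 and 385 FPKM in MH at day 35, 276 and 212 at day 45, 202 and 144 at day 55, and 113 and 76.8 at day 61, against 3.66 and 5.19, 13.2 and 14.3, 17.7 and 21.0, and 9.68 and 18.6 in ZP. Like the sucrose synthase LOC100243135 it was highest in MH at day 35 and lower in ZP on each day (-6.35 ± 0.28, -4.04, -3.08 and -2.70). Of 3 hexokinases tested 2 were higher and 1 lower in ZP on average, 1 and 2 with that scaling.

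Starch formation is another fate of hexose phosphates. The shares of all genes beside these counts are 61.6% higher and 27.0% lower on average. All 3 tested subunits of ADP-glucose pyrophosphorylase and 5 of 7 starch synthases were higher on average (1 lower), and 3 and 5 (2 lower) after median-ratio scaling. LOC100253688, such a pyrophosphorylase subunit, was at 0.809 to 2.89 FPKM in MH and 21.9 to 57.9 in ZP (3.91 ± 0.07). The granule-bound starch synthase LOC100264969 climbed in ZP from 135 and 133 FPKM at day 35 to 335 and 315 at day 61, against 45.6 to 64.9 in MH. Of 10 amylases, 8 were higher and 1 lower on average, or 7 and 2 with that scaling.

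Of 5 galactinol-sucrose galactosyltransferases, which make raffinose, 5 were higher in ZP on average, beside 61.6% of all genes, and 4 after median-ratio scaling. LOC100242394 was at 40.5 and 41.7 FPKM in ZP at day 35 against 1.91 and 1.43 in MH (3.98 ± 0.13) and at most 4.33 in ZP later. Inositol-3-phosphate synthase LOC100259515, the source of the inositol in galactinol, was at 2295 and 2226 FPKM in ZP at day 35 against 65.7 and 60.7 in MH (5.14 ± 0.11), and at 47.3 to 101 in ZP later. Of the 5 galactosyltransferases, 4 were lower in ZP at day 61 than at day 35 and 1 was higher. The 2 stachyose synthases were higher on average, and 1 was after median-ratio scaling.

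Sugar signalling genes were mixed. Of 12 genes with trehalose-phosphate in their description, 8 were higher and 2 lower in ZP on average, beside 61.6% and 27.0% of all genes. With median-ratio scaling the counts were 7 and 4. The description pattern does not separate enzymes that make this sugar phosphate, which reports sucrose supply, from any that remove it. LOC100265802 of this list was at 59.5 and 61.0 FPKM in MH at day 35 against 5.98 and 5.25 in ZP (-3.21 ± 0.16). Of 6 SNF1-related kinase genes, subunits of an energy-sensing kinase, 3 were higher and 3 lower on average, and as many with median-ratio scaling. The regulatory subunit LOC100254185 was at 56.4 to 87.6 FPKM in MH and 1.01 to 3.70 in ZP (-4.63 ± 0.13 on average), and LOC100259395 was at 9.51 to 29.2 in MH and 40.2 to 179 in ZP (2.67 ± 0.06). The polyol transporter LOC100852699 was at most 0.198 FPKM in MH and reached 77.4 and 75.9 in ZP at day 55 (6.19 ± 0.13).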

How the data were processed

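The 16 ovule libraries were made from total RNA and read on an Illumina NovaSeq X Plus instrument. The authors deposited a table of FPKM per gene, with 1 column for each library per the file headers. Aligner, counter, strand use and genome build are not given in the sources used here. Of the 79 genes, 76 are in the RefSeq annotation of ASM3070453v1, and positions are those of the deposited table. An overlap with another gene was found for 7 of the 79, and the text does not mark each of them. The labels give no plant of origin for a library, so p-values measure only how far these libraries spread, and that spread may be technical.

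The fit used genes that reached 1 FPKM in 2 or more libraries. It was limma 3.58.1 in R 4.3.3, with a variance trend, on log2(FPKM + 1) and a mean for each of the 8 groups. P-values were two-sided, with Benjamini-Hochberg adjustment over all 12637 genes within a comparison. Differences of low genes are understated on this scale. The fit was tested on simulated data. Read steps in the low values gave estimated depths of 2e+07 to 3e+07 fragments, 0.0333 to 0.0499 FPKM per fragment in a gene of 1 kb; the scale rests on 401 of 4017 genes that shared the most common product and is approximate.

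The genes and lists were chosen with earlier results of these data known. In each class the text names the 3 members with the highest mean, the 2 called members with the largest average change and a group mean of at least 10 FPKM, the 4 marker genes of the set and members called in opposite directions on different days. Other members were added after their values were seen, to account for the class. The patterns for galactinol-sucrose galactosyltransferase, pericarp genes and fructokinase were set after the descriptions had been seen. Neighbouring lists for UDP-glucose pyrophosphorylase and starch branching enzyme matched no gene of the deposited table. Alternatives were a pseudocount of 0.1, other filters, median-ratio scaling, quantile normalization, rescaling without seed storage genes, a replicate block and leaving out libraries. A motif search in promoters was not run.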

Additional observations from a re-analysis of the deposited data

Results flagged for a closer look

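For 65 of the 72 tested genes the course over the 4 days differed between the varieties (interaction F-test, limma, Benjamini-Hochberg adjusted p under 0.05). This is a larger share than the 78.9% of all tested genes, and the excess was not tested. After rescaling without seed storage genes the count was 59 of 72, beside 9154 of all 12637 genes. It was 67 (all genes 9980) after median-ratio scaling and 66 (all genes 9883) after quantile normalization.

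For 11 genes (13.7% of all tested genes) the day 61 minus day 35 change was called in opposite directions in MH and ZP. The adjusted p of the interaction was 4.08e-09 for LOC100243135, 2.55e-06 for LOC100262385, 4.05e-05 for LOC100241122, 9.75e-07 for LOC100255033, 3.95e-08 for LOC104881446 and 3.08e-10 for LOC100261154, and these 6 kept opposite calls under each of the 3 other scalings. It was 1.12e-06 for LOC100247121, 0.00207 for LOC100267921, 0.000335 for HT6, 0.000273 for LOC100266019 and 0.000398 for LOC104881447, which lost the opposite call under at least 1 scaling.

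For 15 genes (16.1% of all tested genes) ZP was called higher than MH on 1 day and lower on another. The adjusted p of the interaction was 3.54e-06 for LOC100252799, 6.51e-06 for LOC104882694, 4.05e-05 for LOC100241122, 8.39e-05 for LOC100232961, 4.06e-08 for LOC132255020, 1.13e-07 for LOC100250305 and 1.09e-08 for LOC100255485, and these 7 kept opposite calls under each of the 3 other scalings. It was 0.000178 for LOC100267606, 0.00419 for LOC100254513, 1.12e-06 for LOC100247121, 3.97e-05 for VVSUC27, 8.85e-06 for LOC100263259, 0.00775 for LOC100232958, 1.11e-06 for LOC100250711 and 3.37e-06 for LOC100265011. These 8 lost the opposite calls under at least 1 scaling. Groups of 2 libraries do not allow a test for a single library that stands apart.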

How the results depend on the processing

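The scaling of the libraries moved the results most. After median-ratio scaling the counts lower in ZP were 29 at day 45, 25 at day 55, 27 at day 61 and 29 on average, and 26 genes were higher at day 61 in MH. With quantile normalization they were 26, 24, 27 and 29, and 26 genes were higher and 23 lower at day 61 in MH. These counts follow from the construction, since both scalings move the median of all genes toward 0. For the same 7 comparisons of 72 genes, 389 of 504 results were called. Of these, 39 were lost and 13 turned after median-ratio scaling, 60 and 4 after quantile normalization, and 27 and 0 after rescaling without seed storage genes. Calls were also gained, 54, 59 and 12 in the same order.

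The average difference changed sign after median-ratio scaling for LOC100267606 (-0.45), LOC100241955 (-0.11), LOC100254513 (-0.54), HT6 (-0.21), LOC100250305 (-0.0055), LOC100247121 (-0.41), LOC100232961 (-0.61), LOC100263259 (-0.32) and LOC100250711 (-0.19). With quantile normalization it did so for LOC100254513 (-0.51), LOC100250305 (-0.15), LOC100252799 (-0.14), LOC100247121 (-0.25), LOC100232961 (-0.48), LOC100263259 (-0.30) and LOC100250711 (-0.36). The cause was not tested beyond the shift itself.

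Leaving out 1 library at a time lost 1 to 12 calls, gained 0 to 11 and turned 0. Leaving out the 4 ZP libraries of replicate 2, chosen after seeing the data because their seed storage sums were above those of replicate 1 on each day, lost 43, gained 8 and turned 0, and the average calls of LOC100260266 (-0.23), AGA (-0.19) and LOC100265011 (-0.29) were lost. A pseudocount of 0.1 lost 4 calls and gained 13, and the lack of a filter lost 1 and gained 0. Over 28 pairs of groups, within and between varieties, the correlation of same-numbered deviations was -0.60 to 0.73 and exceeded 0.1 in 11. Within a variety, however, the replicate number went with a repeated shift. In MH, seed storage sums were higher in replicate 1 on each day, for example 243451 against 178305 FPKM at day 45. In ZP they were higher in replicate 2 on each day. The replicate block is 1 term for both varieties, so it cannot take up shifts of opposite sign. With the replicate block 0 calls were lost and 5 gained, for example 14 genes lower in ZP at day 45 and 63 changed over the days in MH. Depth limits low genes: under about 0.05 FPKM a gene rests on very few fragments.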
